A study of Rattus norvegicus with 72 samples.

Results

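Hypothalamus and cortex of newborn rats were compared in 12 of the 72 libraries of the series. They are the RNA libraries that carry the parent-of-origin label maternal and the age label postnatal day 2 (P2), with 6 from each tissue. The members were taken from the labels for tissue, age, parent of origin and genotype, and no measured value entered the choice. The study set a UBE3A deletion passed on by the mother against one passed on by the father, in RNA and DNA of female pups at P2 and P9. Each tissue holds 3 libraries labelled wild-type (WT) and 3 labelled as carrying the UBE3A deletion, and the controls were matched by litter. The label maternal stands on the WT controls too. All 12 libraries are from females, and the deletion is described as maternally derived for this label. No label gives the strain, the litter of a library or whether tissue was pooled. No label says whether both tissues came from the same pups or pairs a hypothalamus library with a cortex library. Replicate numbers only name a library here.

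The hypothalamus lies at the base of the forebrain and is built of many small nuclei whose neurons control hormone release, feeding, temperature and sleep. The cerebral cortex is a layered sheet in which glutamatergic projection neurons are the main class and GABAergic interneurons the smaller one. The tissues arise from different parts of the embryonic forebrain, and in the first postnatal days neurons in both are still extending processes and forming synapses. UBE3A is an E3 ubiquitin ligase that in mature neurons is made mainly from the maternal allele, and its loss from that allele causes Angelman syndrome in humans.

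Counts were deposited per RefSeq accession, not per gene. None of the 184444 accessions (0) matched the RefSeq table of rat genes used here, so the results below are described by accession and by class of accession. For the same reason, neither the tissue labels nor the genotype labels could be checked against marker genes or against Ube3a. A gene may be counted under more than 1 accession, so numbers of accessions should not be read as numbers of genes. It was not established which species' records the accessions are. The class of an accession may therefore not be that of the rat transcript counted.

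The tissues differed widely in depth. Hypothalamus libraries held 222697 to 543916 counts and cortex libraries 1669187 to 1953222, after 1 noncoding accession (NR_137294) had been set aside. NR_137294 took 9.33% to 18.1% of all counts in the hypothalamus libraries. In cortex it took 0.0140% in WT replicate 1 and at most 0.00108% in the other libraries. Tissue and depth therefore moved together. Library names also fall into one series in hypothalamus (JL2) and another in cortex (JL6), so tissue and name series cannot be told apart in these 12 libraries. Thinning, the random removal of counts until each library held 222697, was used to compare the tissues at equal depth.

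**Figure D1:**
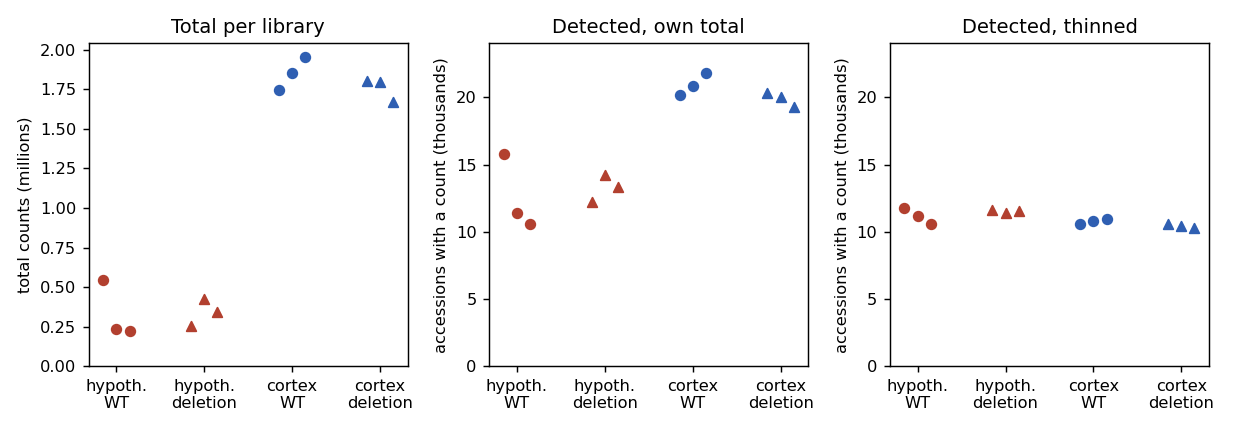
Total counts (without NR_137294) and numbers of accessions with a count (at own totals and after thinning) for each of the 12 libraries, with circles for WT and triangles for deletion, hypothalamus in red and cortex in blue. Cortex libraries lie above all hypothalamus libraries in the first 2 panels, and after thinning to 222697 counts the hypothalamus libraries run from 10572 to 11739 accessions and the cortex libraries from 10274 to 10928.

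Over the 7194 accessions with enough counts to test, 1920 were higher in hypothalamus than in cortex and 1878 were lower (edgeR's quasi-likelihood test, Benjamini-Hochberg adjusted p under 0.05). Together these were 52.8% of the accessions tested, 26.7% higher and 26.1% lower. The test averaged the tissue difference over WT and deletion libraries, and the accessions tested held 97.0% to 97.9% of each library's counts. The median log2 difference, hypothalamus minus cortex, was -0.02 over all accessions tested, with quartiles at -0.53 and 0.61. TMM scaling centres the values, so a median near 0 is no measure of balance. Without the filter, the calls among 32623 accessions were 1235 higher and 3072 lower, and the median was -0.68.

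At the libraries' own totals, the accessions that were higher in hypothalamus differed by more than those that were lower. Their median log2 difference was 1.08, a 2.11-fold difference, and they had a median of 43.5 CPM (counts scaled to library size) in hypothalamus and 19.9 in cortex. For the accessions lower in hypothalamus the median log2 difference was -0.81, a 1.75-fold difference, with a median of 48.0 CPM in hypothalamus and 83.3 CPM in cortex. A difference of at least 2-fold was reached by 1053 of the higher accessions (14.6% of those tested) and by 645 of the lower ones (8.97%). At 4-fold or more the counts were 243 and 80, at 8-fold 60 and 19, and at 16-fold 25 and 4. At these totals the lead of the higher direction grew with the size of the difference. Hypothalamus libraries held fewer counts, which limits how large a decrease can be measured there. Of the calls of at least 4-fold in either direction, 168 fell in the lowest of 4 abundance bands (3.26 to 13.6 CPM). Accessions at such levels could pass the filter through 1 tissue alone. Sizes by direction were not counted after thinning or without the filter, so the parts of depth and of the filter in this lead were not tested.

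The tissues were separated without overlap for a smaller set. All 6 hypothalamus libraries lay above all 6 cortex libraries for 859 of the 7194 accessions (11.9%) and below them for 1066 (14.8%). Of the accessions called higher, 856 (44.6%) did not overlap between the tissues. Of those called lower, 1053 (56.1%) did not. Many calls therefore rested on means whose single libraries crossed.

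**Figure D2:**
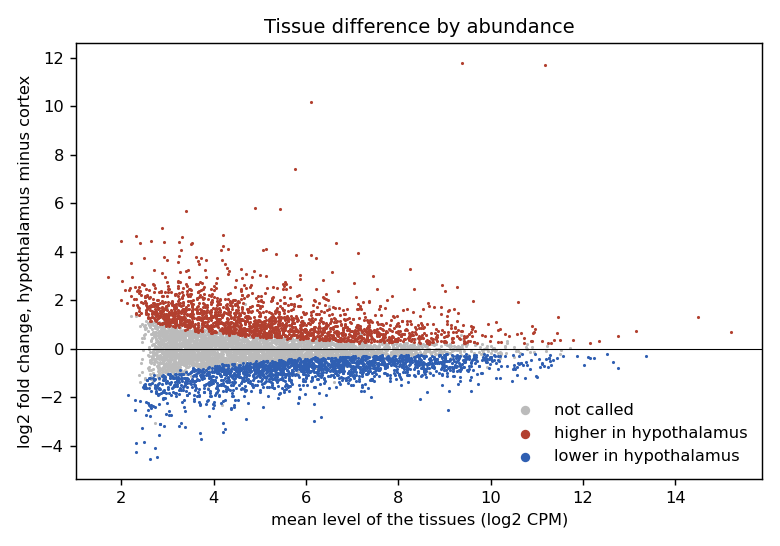
Log2 difference between hypothalamus and cortex against the mean of the tissue levels (log2 CPM) for the 7194 accessions tested, with the 1920 higher in hypothalamus in red, the 1878 lower in blue and the rest in grey. A few points stand above a log2 difference of 6, no point lies as far below 0, and the called differences become smaller toward high levels.

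Which direction led differed between abundance bands. When the accessions were ranked by the mean of their tissue levels and split into 4 bands of nearly equal number, the lowest band (3.26 to 13.6 CPM) held 477 accessions higher and 232 lower in hypothalamus. The next band held 484 and 345 (13.6 to 32.2 CPM). In the band above it (32.2 to 99.8 CPM) the counts were 488 and 541. In the highest band (99.9 CPM and above) 471 were higher and 760 lower. Accessions lower in hypothalamus thus outnumbered the higher ones among abundant transcripts. The filter keeps an accession with enough counts in a single tissue, so members of the low bands could pass through 1 tissue alone. The counts in the low bands therefore depend in part on the filter, and bands were not counted without it. Without the filter, the calls over all accessions were 1235 higher and 3072 lower.

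The size of the called differences fell as abundance rose. The share of accessions called rose from 39.4% in the lowest band to 68.4% in the highest, while the median absolute log2 difference of the calls fell from 1.51 to 0.61. Calls of at least 4-fold numbered 168, 86, 51 and 18 from the lowest to the highest band. After thinning, 3708 accessions could be tested. The lowest band then held 243 higher and 143 lower, the band below the highest 241 and 231, and the highest 243 and 315. At equal depth the higher direction thus led in the lowest band and the lower direction in the highest. In the band below the highest the lower direction did not lead, unlike at the libraries' own totals. Members of the low bands could still pass the filter through 1 tissue alone, which thinning does not change.

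Noncoding accessions leaned toward hypothalamus. RefSeq marks messenger RNAs with NM_ and noncoding RNAs with NR_. Of the 656 NR_ accessions tested, 226 were higher in hypothalamus (34.5%) and 105 lower (16.01%), against 26.7% and 26.1% of all accessions tested. Their median log2 difference was 0.29. Of the 6538 NM_ accessions, 1694 were higher (25.9%) and 1773 lower (27.1%), with a median log2 difference of -0.04. When NM_ accessions were scaled and fitted on their own, 1756 were higher and 1668 lower, with a median of -0.0096. The small lean of the NM_ accessions thus depended on the fit. Among NR_ accessions 47 were at least 4-fold higher and 9 at least 4-fold lower, against 196 and 71 among NM_ accessions. These shares describe the classes, and the difference between them was not tested across accessions. The classes were not compared at equal abundance, and these counts were not made after thinning. In the lowest of 4 abundance bands of all accessions tested, 477 were higher in hypothalamus and 232 lower.

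The share of counts in NR_ accessions, with NR_137294 set aside, was tested over libraries. It ran from 6.23% to 8.70% in hypothalamus with a median of 8.29%, and from 6.09% to 6.80% in cortex with a median of 6.54%. A single hypothalamus library, WT replicate 3 at 6.23%, lay within the cortex range and the other 5 lay above it. The means were 7.99% ± 0.926 (SD, n = 6) in hypothalamus and 6.53% ± 0.261 (SD, n = 6) in cortex (two-sided exact permutation test, p = 0.0130, adjusted over 3 such measures 0.0130). Within WT libraries the difference was 0.881 percentage points (exact permutation p = 0.40) and within deletion libraries 2.04 (exact permutation p = 0.10). The smallest p that 3 libraries against 3 allow is 0.10, so neither genotype could pass alone. The WT value was above that floor, and the tissues overlapped in WT. Hypothalamus WT replicate 3, at 6.23%, lay below the WT cortex libraries, which ran from 6.58% to 6.80%.

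Hypothalamus libraries were also more concentrated in their leading transcripts. The 10 most abundant accessions of a library took 12.2% to 15.5% of its counts in hypothalamus and 9.61% to 10.2% in cortex, without overlap. The means were 13.6% ± 1.26 and 9.94% ± 0.237 (SD, n = 6 each), and the two-sided exact permutation p of 0.00216, the smallest this design can give, was 0.00649 after adjustment over the 3 measures. At equal depth, hypothalamus libraries nevertheless had more accessions with a count, 11345 ± 421 against 10600 ± 230 (SD, n = 6 each, exact permutation p = 0.0108, adjusted 0.0130). The ranges of that count overlapped. Hypothalamus WT replicate 3, at 10572, stood inside the cortex range.

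Detection in one tissue alone depended on depth. At their own totals, 2 accessions had counts in all 6 hypothalamus libraries and in no cortex library, and 296 had counts in all 6 cortex libraries and in no hypothalamus library. After thinning the same counts were 16 and 5. All 12 libraries shared 6715 detected accessions at their own totals and 5095 after thinning. The excess of cortex-only accessions was thus seen at unequal depth and not after thinning.

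The accessions named here follow a rule: adjusted p under 0.05 by the tissue test, at least 20 CPM in the higher tissue, no overlap between the tissues, and then the largest fold change. The rule left 731 accessions higher in hypothalamus and 960 lower. The first 2 of each direction are described library by library. Since the rule asked for separated libraries, their separation is a description and not a further result.

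NM_001190732 came first by this rule, just ahead of NM_001190452. In hypothalamus its level was 827, 1675 and 1481 CPM in the 3 WT libraries and 1461, 1124 and 1376 CPM in the 3 deletion libraries. In cortex it had 6 counts in WT replicate 1 (3.43 CPM) and 0 in the other 5 libraries. Every hypothalamus library was thus high and cortex was close to empty, with 2506 counts in all against 6. The means were 1324 ± 302 CPM and 0.572 ± 1.40 CPM (SD, n = 6 each), and the log2 difference was 11.78 (SE 0.50, 95% interval 10.62 to 12.94, edgeR quasi-likelihood adjusted p = 6.2e-07). Cortex WT replicate 1 carried the only cortex counts, and without it the fitted log2 difference was 13.41. Over the other alternatives it ran from 10.15 in WT libraries alone to 13.47 in deletion libraries alone, with 10.33 after thinning. NM_001190452 was the larger of the pair in WT libraries alone (11.57) and after thinning (10.83).

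NM_001190452 had a similar pattern at a higher level. Its hypothalamus values were 2158, 5691 and 5857 CPM in WT and 4654, 4421 and 5145 CPM in deletion libraries. Each cortex library held 1 to 3 counts, or 0.562 to 1.82 CPM. WT replicate 1 was the lowest of the hypothalamus libraries and still stood far above every cortex library. The means were 4654 ± 1345 CPM and 1.31 ± 0.489 CPM (SD, n = 6 each), with a log2 difference of 11.69 (SE 0.40, 95% interval 10.79 to 12.60, edgeR quasi-likelihood adjusted p = 1.19e-08).

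Within hypothalamus, the counts of both accessions varied less when set against those of NR_137294 than when set against the library total. NM_001190732 had 6.93 to 8.77 counts per 1000 counts of NR_137294, a 1.27-fold range, while its CPM varied 2.02-fold. NM_001190452 had 21.4 to 28.7 counts per 1000, a 1.34-fold range, and its CPM varied 2.71-fold. In cortex, WT replicate 1 had both the highest count of NR_137294 (244, against at most 20 elsewhere) and the only counts of NM_001190732. NM_001190452 did not follow it there, with 3 counts in that library (12.3 per 1000) and 1 to 3 in the others (150 to 231 per 1000). The part of that noncoding accession's reads in these values was not tested.

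NM_008552 led the accessions lower in hypothalamus. Its hypothalamus values were 1.80, 8.48 and 0 CPM in WT and 3.76, 0 and 0 CPM in deletion libraries, from 4 counts in all. In cortex it stood at 18.9, 38.5 and 14.9 CPM in WT and at 25.3, 14.6 and 32.8 CPM in deletion libraries, from 260 counts. Cortex was thus the higher tissue throughout, but the hypothalamus level rested on single counts. The means were 2.34 ± 3.36 and 24.2 ± 9.86 CPM (SD, n = 6 each), and the log2 difference was -3.72 (SE 0.68, 95% interval -5.13 to -2.30, edgeR quasi-likelihood adjusted p = 0.000172). Its value was -5.43 without hypothalamus deletion replicate 1, -4.37 without hypothalamus WT replicate 2, -2.92 in WT libraries alone, -4.42 in deletion libraries alone, -2.99 in voom and -4.39 after thinning with no filter.

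NM_001091634 was similar in level. Hypothalamus held 1.80, 8.48 and 4.57 CPM in WT and 3.76, 0 and 0 CPM in deletion libraries, from 5 counts. Cortex held 23.5, 27.8 and 16.9 CPM in WT and 23.1, 27.0 and 20.03 CPM in deletion libraries, from 249 counts. The cortex libraries lay closer together than for NM_008552. The means were 3.10 ± 3.24 and 23.1 ± 4.11 CPM (SD, n = 6 each), with a log2 difference of -3.45 (SE 0.49, 95% interval -4.46 to -2.44, edgeR quasi-likelihood adjusted p = 3.64e-06). That difference was -5.17 without hypothalamus deletion replicate 1, -2.42 in WT libraries alone, -4.37 in deletion libraries alone, -2.84 in voom and -2.57 after thinning with no filter. After thinning, neither of these cortex-high accessions kept enough counts for the filter.

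**Figure D3:**
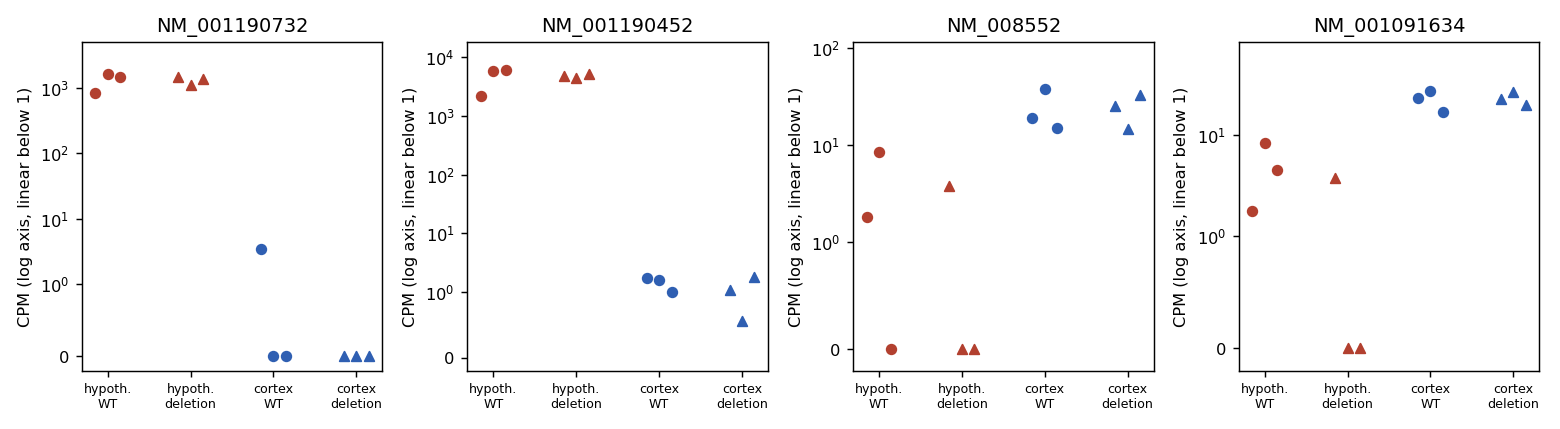
CPM of the 4 named accessions in each library on a log axis that is linear below 1, with circles for WT and triangles for deletion, hypothalamus in red and cortex in blue. NM_001190732 and NM_001190452 lie at 827 to 5857 CPM in hypothalamus and at 0 to 3.43 CPM in cortex, and NM_008552 and NM_001091634 lie at 14.6 to 38.5 CPM in cortex and at 0 to 8.48 CPM in hypothalamus.

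The 10 that were higher in hypothalamus spanned log2 differences of 4.11 to 11.78, and 1 was an NR_ accession. The 10 that were lower spanned -2.48 to -3.72, and 3 were NR_ accessions. The cortex-high values rested on few hypothalamus counts, and without hypothalamus deletion replicate 1 those of NM_008552 and NM_001091634 were -5.43 and -5.17.

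No accession was called for a tissue difference that depended on genotype. The interaction contrast, the tissue difference in deletion minus that in WT libraries, gave 0 calls among 7194 accessions (0%) in edgeR and 0 in DESeq2. In edgeR the lowest adjusted p was 0.999, and 200 accessions had an unadjusted p under 0.05, where evenly spread p-values would give 360. For the 4 named accessions the interaction was 3.37, 0.36, -1.51 and -1.96 on the log2 scale, in the order in which they were described, and the edgeR quasi-likelihood adjusted p was 0.999 for each. With 3 libraries a group, these values do not show that the tissue difference was equal in both genotypes.

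The estimated spread between replicates was wider in hypothalamus than in cortex. The common biological coefficient of variation, edgeR's estimate of variation between libraries beyond counting error, was 13.7% for both tissues in a joint fit, 20.8% for hypothalamus alone and 10.3% for cortex alone. At equal depth it was 20.3% and 8.60%. Correlations of log2(CPM + 1) between libraries, computed across accessions, had a median of 0.880 (0.830 to 0.923) among the 15 hypothalamus pairs and of 0.978 (0.973 to 0.981) among the 15 cortex pairs. The 36 pairs that crossed tissues had a median of 0.840 (0.797 to 0.881), and their range overlapped that of the hypothalamus pairs. After thinning the medians were 0.843 (0.808 to 0.860), 0.865 (0.856 to 0.868) and 0.771 (0.746 to 0.794), and the crossed pairs lay below all pairs of the same tissue.

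The same tissues were measured again in libraries that the comparison above did not use. They were 6 hypothalamus and 6 cortex libraries labelled maternal at P9, and as many labelled paternal at P2. No library was shared. The paternal cortex libraries belong to another name series (JL7) and were closer to hypothalamus in depth, with 878506 to 1102179 counts against 615391 to 970411. The P9 libraries, of the series JL2 and JL6, again differed in depth, with 175988 to 450065 counts in hypothalamus and 1932830 to 2498243 in cortex.

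At P9, 3160 of 7289 accessions were called (43.4%), 1529 higher in hypothalamus (21%) and 1631 lower (22.4%). Of the 3798 P2 calls, 3577 could be tested there. The sign was the same for 3268 of them (91.4%), and 2209 were also called in the same direction, which is 61.8% of those tested and 69.9% of the P9 calls. The opposite call was made for 39 (1.09%). Over the 6689 accessions tested at both ages, the log2 differences correlated at r = 0.814 (Spearman's rho 0.770) across accessions, which are not independent replicates. Name series and depth are shared between these comparisons.

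In the libraries labelled paternal at P2, 3738 of 6783 accessions were called (55.1%), 1910 higher in hypothalamus (28.2%) and 1828 lower (26.9%). Scaling by library totals alone gave 2349 higher and 1457 lower. Of the 3798 calls of the maternal label, 3509 could be tested, 2868 had the same sign (81.7%) and 2064 were called in the same direction, which is 58.8% of those tested and 55.2% of the paternal calls. The opposite call was made for 199 (5.67%). The correlation across 6513 accessions was 0.689 (rho 0.620). The shares with the same sign, 81.7% here and 91.4% at P9, were not tested against each other.

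The age labels of the cortex libraries are in doubt. Between P9 and P2, the differences within cortex ran in opposite directions under the labels maternal and paternal, with r = -0.876 (rho -0.857) over 6503 accessions. This value does not say which of the labels holds the exchange. The doubt therefore also reaches the maternal cortex libraries, at P2 and at P9. An exchange was tried for the paternal label only. For it, hypothalamus labelled paternal at P2 was also set against cortex labelled paternal at P9. This gave 2793 calls among 6597 accessions (42.3%), with 21.9% higher and 20.4% lower in hypothalamus. In this setting 81.6% of the maternal calls tested had the same sign, and 112 were called in the opposite direction. The choice of cortex age thus moved the opposite calls from 199 to 112 and the same-direction calls from 2064 to 1709.

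Of the P2 calls of at least 4-fold, 241 could be tested in the paternal libraries. There 238 had the same sign, 224 were called in the same direction and 0 in the opposite one. With cortex labelled paternal at P9 in its place, 217 could be tested, 203 had the same sign, 175 were called in the same direction and 1 in the opposite one. At maternal P9 the counts were 246 with the same sign, 213 called in the same direction and 0 in the opposite one, of 247 tested. All 20 leading accessions had the same sign in both sets. The 10 higher in hypothalamus were called in both, and the 10 lower were called in the paternal libraries and 7 of them at P9.

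**Figure D4:**
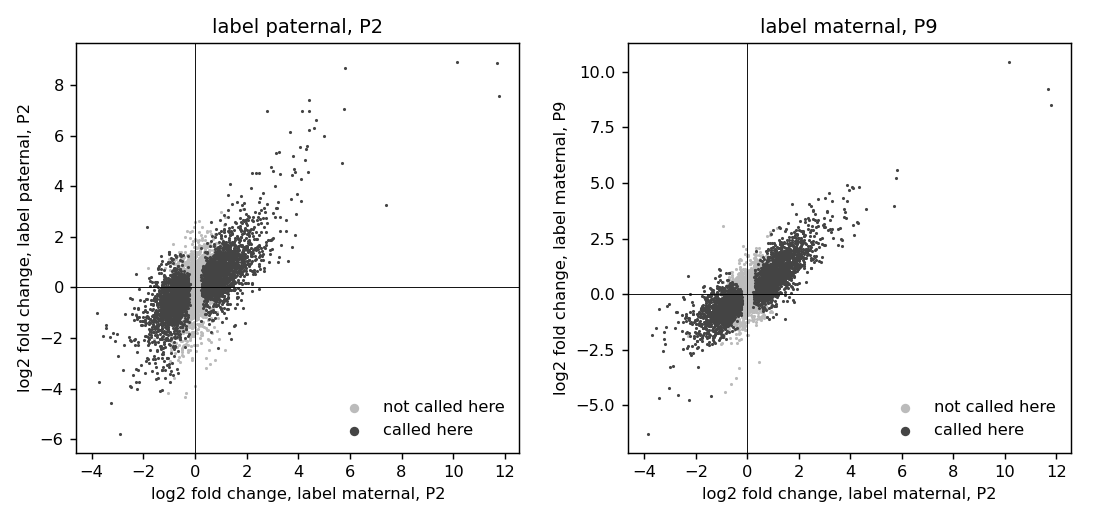
Log2 tissue difference (hypothalamus minus cortex) in the libraries labelled paternal at P2 (left) and maternal at P9 (right) against that in the 12 libraries labelled maternal at P2, with 1 point for each accession tested in both and dark points for those called in the 12 libraries. Most dark points share a sign on both axes, 81.7% on the left and 91.4% on the right.

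The named accessions kept their direction in the other libraries, with changed sizes. NM_001190732 had a log2 difference of 7.55 in the paternal P2 libraries (edgeR quasi-likelihood adjusted p = 9.12e-06) and of 8.49 at P9 (adjusted p = 0.000107). For NM_001190452 the values were 8.86 and 9.21 (adjusted p = 2.73e-05 and 7.11e-05 in the edgeR test). At P9 the cortex level of NM_001190732 reached 70.9 CPM in 1 library against a median of 0.505, and that of NM_001190452 reached 75.1 CPM against a median of 1.26. NR_137294 took up to 0.574% of the counts of a P9 cortex library and 15.3% to 19.4% of the hypothalamus ones. In the paternal P2 libraries it took 4.64% to 10.2% in hypothalamus and at most 0.132% in cortex.

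Both accessions lower in hypothalamus were lower there as well. NM_008552 had log2 differences of -3.73 in the paternal P2 libraries and -1.81 at P9 (edgeR quasi-likelihood adjusted p = 4.09e-07 and 2.51e-05). At P9 its hypothalamus libraries ran from 2.13 to 27.0 CPM with a median of 16.8, against 2.34 ± 3.36 CPM (SD, n = 6) at P2. For NM_001091634 the log2 differences were -1.60 and -4.67 (edgeR quasi-likelihood adjusted p = 0.00249 and 7.78e-05). Its cortex levels were 6.67 to 16.7 CPM in the paternal P2 libraries and 12.2 to 18.1 CPM at P9. The difference in size between these comparisons was not tested.

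The other libraries also gave lists of tissue-high accessions that owe nothing to the 12 libraries. An accession entered a list when it was called and at least 4-fold different, in the same direction, both in the paternal P2 and in the maternal P9 libraries. This gave 76 hypothalamus-high and 22 cortex-high accessions. Of the hypothalamus-high ones, 70 could be tested in the 12 libraries. All 70 were higher in hypothalamus, 69 were called, against 26.7% of all accessions, and 55 did not overlap between the tissues, against 11.9% of all accessions. Their log2 differences had a median of 2.70 and ran from 1.35 to 11.78. The filter keeps an accession with enough counts in a single tissue, so list members could pass through hypothalamus alone. The counts of signs and calls among those tested therefore depend in part on the filter. The shares of all accessions are not a like comparison.

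Of the 22 cortex-high accessions 18 could be tested. All 18 were lower in hypothalamus, 15 were called, against 26.1% of all accessions, and 12 did not overlap, against 14.8%. Their median log2 difference was -2.18, with a range from -3.25 to -0.64. The accessions that were left out (6 and 4) had too few counts for the filter in the 12 libraries. Cortex-high accessions could likewise pass the filter through cortex alone, so the same limit holds for them.

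Library by library the lists separated the tissues. The median over the 76 hypothalamus-high accessions ran from 25.4 to 38.8 CPM in hypothalamus and from 2.82 to 5.06 CPM in cortex. Within cortex it was 2.82 to 3.74 CPM in the WT and 4.55 to 5.06 CPM in the deletion libraries, which did not overlap, while the hypothalamus genotypes did. That difference between cortex genotypes was noticed in these values and was not tested. The median over the 22 cortex-high accessions ran from 16.8 to 20.9 CPM in cortex and from 4.57 to 6.36 CPM in hypothalamus, with the genotypes overlapping in each tissue. The summed CPM of the 22 accessions in cortex was 1771 to 1917 in WT and 1286 to 1755 in deletion libraries, which did not overlap and was not tested either. In bulk tissue, fewer cells of a type and less RNA per cell cannot be told apart behind any of these levels.

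**Figure D5:**
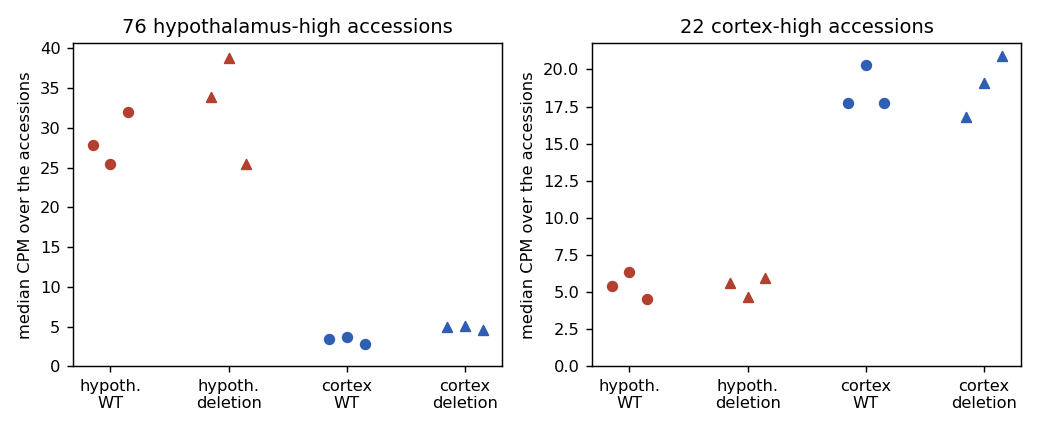
Median CPM over the 76 hypothalamus-high (left) and 22 cortex-high accessions (right), both lists chosen in other libraries, for each of the 12 libraries, with circles for WT and triangles for deletion. The first list lies at 25.4 to 38.8 CPM in hypothalamus and 2.82 to 5.06 CPM in cortex, and the second at 4.57 to 6.36 CPM and 16.8 to 20.9 CPM.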

How the data were processed

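Per the labels' protocols, ribosomal RNA was depleted and libraries were prepared with a directional kit. The submitters' processing notes name STAR, rn6 and Rnor_6.0 without saying how they were used. Not given in the sources used here are the counting tool, annotation and strand setting. The authors deposited raw read counts as whole numbers. Each tissue's table has 184444 RefSeq accessions (168377 NM_, 16067 NR_), by which the tables were joined. No per-sample column stayed unmapped (0). In the RefSeq rat gene table (GRCr8, 114725 accessions) 0 of them were found. The planned lists of genes and cell type markers (29 lists, 424 symbols, 421 of them in that table, 0 with a counted accession) therefore gave no value. For the same reason no sequence is shown.

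NR_137294 was removed before library sizes. In R 4.3.3, edgeR 4.0.16 was fitted with TMM scaling, filterByExpr, 4 means (tissue by genotype) and robust quasi-likelihood dispersion, and p-values were Benjamini-Hochberg adjusted over all accessions tested. The fit was tried on simulated data with the same dispersion in both tissues and few changed accessions. That trial does not cover the unequal spread of the tissues or the large share of calls seen here. CPM divides each count by the library size after TMM adjustment. Nothing says that replicates came from separate animals, so the p-values reflect only how these samples vary, which may be technical. Single values were compared by exact permutation tests (scipy 1.17.1), two-sided. Alternatives were other scalings, no filter, thinning, DESeq2 1.42.0, limma 3.58.1 voom with a weight per tissue, NM_ accessions only, NR_137294 kept, 1 mean per tissue, 1 genotype, and each library left out. Accessions were named by the rule given with them, 2 in each direction. The members, lists and tests were chosen with earlier results of these data known.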

Additional observations from a re-analysis of the deposited data

Results flagged for a closer look

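A library far from the rest of its tissue was looked for in 18 groups of 6 values with Dixon's test, and 3 stood out. For normally distributed values the test picks about 1 group in 20 by chance. The NR_ share of hypothalamus WT replicate 3 was 6.23%, and the next library in hypothalamus was at 7.83%. This library also had the lowest total of the 12. NR_137294 took 0.0140% of the counts of cortex WT replicate 1, and the next cortex library was at 0.00108%. NM_001190732 stood at 3.43 CPM in the same cortex library and at 0 in the other 5. With 0 in all the others, any count there would have stood out, so the rate of 1 in 20 does not hold for this group.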

How the results depend on the processing

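With no filter on low counts, 1235 accessions were higher and 3072 lower in hypothalamus, and the higher share of the calls moved from 50.6% to 28.7%. That setting tests 32623 accessions, and the median log2 difference was then -0.68. Thinning gave 936 higher and 854 lower among 3708 tested, and thinning with no filter, added after seeing the data, 1023 and 877. Of the 3798 calls, 2354 could be tested after thinning: 2353 had the same sign, 1726 were called in the same direction and 0 in the opposite one. WT libraries alone gave 1155 and 896. Deletion libraries alone gave 1083 lower. Leaving out each library gave 1526 to 1916 higher, 1486 to 2226 lower and 0 interaction calls throughout. The other scalings, DESeq2 (1896 and 1749) and voom with a weight per tissue (1915 and 1660, also added after seeing the data) stayed within 1.5 times.

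In the paternal P2 libraries, WT libraries alone gave 1218 and 1173, and deletion libraries alone 1055 and 1138. Leaving out each library gave 1711 to 1946 higher and 1747 to 1977 lower. At P9, thinning gave 649 and 526, WT libraries alone 754 and 704, deletion libraries alone 883 lower, and leaving out each library 1110 to 1426 and 1164 to 1942. The NR_ share differed by 1.32 to 1.81 percentage points when each library was left out, by 0.881 in WT and by 2.04 in deletion libraries alone, where 3 against 3 cannot pass, and by 15.01 with NR_137294 kept. The 4 named accessions kept their direction and their call in all 94 refits that gave a value. The planned sums by gene symbol and list medians were not run, since no accession could be paired with a symbol. No paired analysis was possible because the replicate numbers were assigned here and no label pairs the libraries.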
